A study of Mus musculus with 24 samples.

Results

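The 10 genes described here mark microglia or blood vessel endothelium and were followed through 8 CUT&RUN peak lists of whole mouse retina, as a measure of how far these scarce cells can be seen when the tissue is not sorted. The genes were chosen by symbol, 5 for each cell type, out of 21887 protein-coding genes: Cx3cr1, Csf1r, Aif1, Tmem119 and P2ry12 for microglia, and Pecam1, Cdh5, Kdr, Tek and Cldn5 for endothelium. A gene was counted in a list when a peak overlapped the gene or the 5 kb on either side of it by 1 bp or more. The rule itself uses no measured value.

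The series holds 24 libraries from wild-type retina aged 2 days (P2) or 17 days (P17) after birth, each made from 600000 nuclei, in which antibody-bound DNA was cut free and sequenced. The antibodies were directed against SOX8, SOX9, H3K4me3 or H3K27ac, with IgG as control. At each age there were 4 SOX8 libraries, made with 2 antibodies, and 2 libraries for each of the others. The lists give 1 set of peaks per target and age and name no replicate, so a difference between lists could not be set against replicate error and was not tested. The 4 IgG libraries were not analysed here. SOX9 peaks lay at 12 of 20 Müller glia genes and 4 of 20 rod photoreceptor genes in the list labelled P2, against 27.7% of all protein-coding genes. In the list labelled P17 they lay at 2 and 16, against 15.7%. SOX9 is known from Müller glia and not from rods. The SOX8 lists differed in the same directions. SOX8 peaks lay at 10 Müller glia genes and 3 rod genes at P2 (15.1% of all genes), and at 2 and 6 at P17 (13.0%). Whether the P17 SOX8 and SOX9 lists show binding of SOX8 and SOX9 was not tested. Each SOX8 or SOX9 value below is therefore that of the list so labelled.

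Microglia are the resident immune cells of the retina, and endothelial cells line its blood vessels, which in the mouse grow across and into the retina after birth. Both are few beside neurons and Müller glia, the main retinal glia, in which SOX8 and SOX9 are studied. H3K4me3 marks the starts of active genes, and H3K27ac marks active starts and enhancers. A mark present in a small share of the nuclei adds little to the signal of the whole tissue. In such bulk samples, fewer cells of a type and less signal per cell cannot be told apart.

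The starts of the genes differ in sequence, which matters below because H3K4me3 lies mostly at starts rich in CpG dinucleotides. The RefSeq promoter table of GRCm38.p6 matched 6 of the 10 genes: Cx3cr1, Aif1, P2ry12, Kdr, Tek and Cldn5. The 250 bases before the start are shown for 4 of them, 5′ to 3′ on the strand of the gene, with each CpG in capitals. Kdr is shown as the gene with its own H3K4me3 peak, Cldn5 as the next richest in CpG, and Cx3cr1 and Tek as starts poor in CpG, 1 for each cell type. The windows lie at chr5:75978456-75978705 (minus strand), chr16:18776597-18776846 (plus), chr9:120068297-120068546 (minus) and chr4:94739039-94739288 (plus), in that order.
Kdr: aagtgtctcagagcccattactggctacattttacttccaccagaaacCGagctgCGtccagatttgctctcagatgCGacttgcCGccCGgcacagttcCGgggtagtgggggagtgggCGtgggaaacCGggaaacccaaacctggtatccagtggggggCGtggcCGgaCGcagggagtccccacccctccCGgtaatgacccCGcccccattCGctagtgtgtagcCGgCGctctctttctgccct
Cldn5: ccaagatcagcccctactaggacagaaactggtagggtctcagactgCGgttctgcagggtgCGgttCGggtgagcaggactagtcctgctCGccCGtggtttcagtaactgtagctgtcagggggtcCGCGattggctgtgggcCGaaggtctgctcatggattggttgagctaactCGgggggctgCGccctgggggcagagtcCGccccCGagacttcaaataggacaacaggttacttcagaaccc
Cx3cr1: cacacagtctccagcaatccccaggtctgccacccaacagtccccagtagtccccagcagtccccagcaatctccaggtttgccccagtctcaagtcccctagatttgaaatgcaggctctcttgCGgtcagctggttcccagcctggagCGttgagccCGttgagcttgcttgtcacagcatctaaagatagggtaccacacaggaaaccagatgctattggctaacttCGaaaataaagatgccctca
Tek: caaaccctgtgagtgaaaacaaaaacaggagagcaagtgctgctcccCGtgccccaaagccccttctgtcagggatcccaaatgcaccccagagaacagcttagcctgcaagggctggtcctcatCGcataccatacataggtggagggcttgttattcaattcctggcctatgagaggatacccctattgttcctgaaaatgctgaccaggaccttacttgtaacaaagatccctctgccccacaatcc

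Outside the P2 H3K27ac list, at most 3 of these 10 genes had a peak in any list. The SOX8 and SOX9 counts were near the shares of all protein-coding genes, while those of H3K4me3 and P17 H3K27ac lay below them. A SOX8 peak lay at 1 gene at P2, where 15.1% of all protein-coding genes had one, and at 1 gene at P17, against 13.0%. A SOX9 peak lay at 2 genes at P2, against 27.7% of all genes, and at 1 gene at P17, against 15.7%. H3K4me3 was found at 2 genes at each age, where 49.3% of all genes had a peak at P2 and 50.9% at P17. H3K27ac was found at all 10 genes at P2, against 81.8%, and at 3 genes at P17, against 57.0%. Every peak outside the P2 H3K27ac list belonged to Aif1, Kdr or Pecam1, and those near Aif1 lay at the start of its neighbour.

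**Figure D1:**
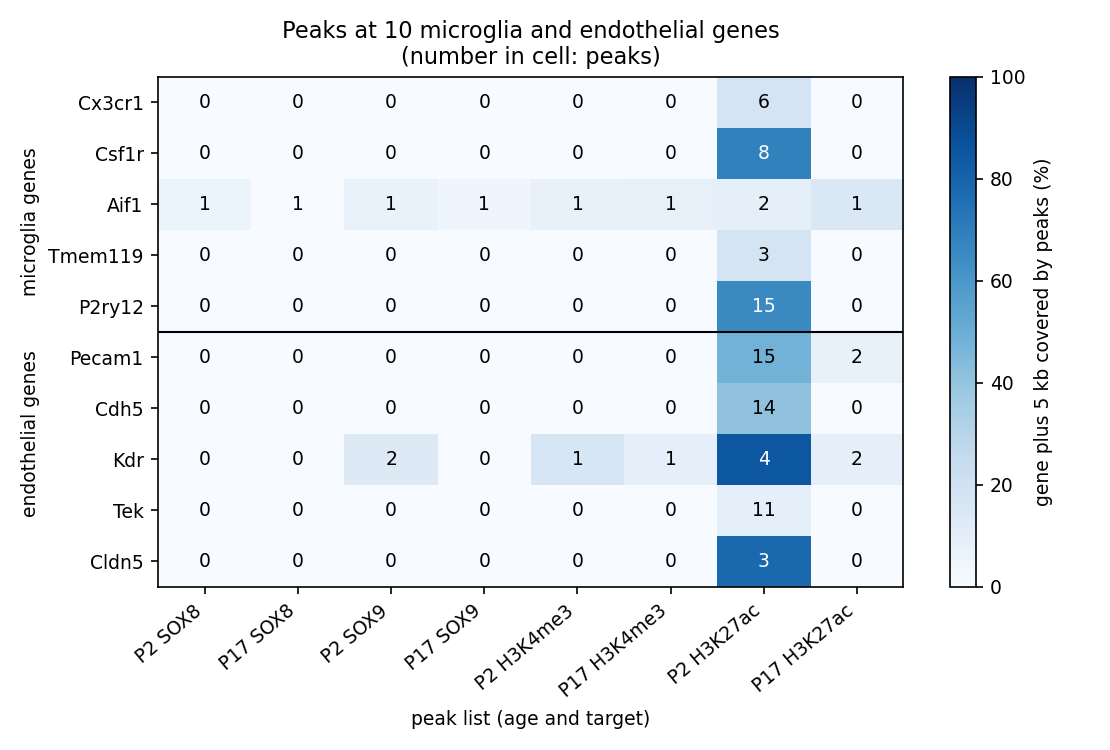
Number of peaks (figure in each cell) and share of the gene plus 5 kb covered by peaks (colour, in %) for the 10 genes (rows) in the 8 lists (columns). The P2 H3K27ac column is filled for every gene, with 2 to 15 peaks; elsewhere only Aif1, Kdr and Pecam1 have peaks.

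Among the microglia genes, Cx3cr1 encodes the fractalkine receptor, through which neurons signal to microglia. It spans chr9:120048683-120068296, 19614 bp. Cx3cr1 had 6 P2 H3K27ac peaks that covered 17.8% of the gene and its flanks, the widest of 3106 bp, and none in the other lists. None lay at its start, since the nearest was 3288 bp away. The nearest H3K4me3 peak was 41.4 kb from the gene at P2 and 41.6 kb at P17, at Slc25a38.

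Csf1r encodes the receptor for the growth factors CSF1 and IL-34, on which microglia depend for survival. It spans chr18:61105572-61131139, 25568 bp, and had 8 P2 H3K27ac peaks that covered 68.5% of its footprint. The widest, of 9601 bp, crossed one end of the gene and reached into Hmgxb3, and a peak of 4498 bp crossed the other end. Csf1r was thus widely covered at P2 but had no peak in any other list. Its nearest P17 H3K27ac peak was 37.5 kb away, at Hmgxb3, and its nearest H3K4me3 peaks were 44.0 kb away at P2 and 43.9 kb at P17.

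P2ry12 encodes the purine receptor that guides microglial processes to injury. It spans chr3:59216271-59262985, 46715 bp, within the larger gene Med12l. All 15 of its P2 H3K27ac peaks therefore also lay in Med12l, so these peaks cannot be given to P2ry12 alone. They covered 65.3% of its footprint, and 1 of them, of 6768 bp, lay over its start. The widest, of 11311 bp, lay in the flank and also overlapped the neighbouring purine receptor gene P2ry13. At P17 the nearest H3K27ac peak to P2ry12 was 37.6 kb away, and the nearest H3K4me3 peak was 207 kb away at both ages.

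Tmem119 encodes a membrane protein used to tell microglia from other macrophages. It spans chr5:113793729-113800396, 6668 bp, and had 3 P2 H3K27ac peaks over 17.9% of its footprint. Of these, 1 of 1609 bp crossed a gene end. SOX8 and SOX9 peaks at both ages lay 18.2 to 19.9 kb away, at Sart3 and Iscu, with H3K4me3 peaks 19.0 kb (P2) and 19.3 kb (P17) from Tmem119. These peaks stood beyond the 5 kb flanks and entered the count only when the flanks were widened to 20 kb.

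Aif1, which encodes the calcium-binding protein IBA1, a stain for microglia, was counted in all 8 lists. The gene is short (chr17:35170986-35176083, 5098 bp) and lies 5664 bp from Prrc2a, a gene transcribed from the same strand. The peak of each list nearest to Prrc2a lay outside Aif1 and covered the start-side end of Prrc2a. These peaks began 2.78 to 4.96 kb from Aif1 and were 2977 bp (SOX8), 4532 bp (SOX9), 5605 bp (H3K4me3) and 3413 bp (H3K27ac) wide at P2. At P17 the widths were 2598 bp, 3084 bp, 6446 bp and 8317 bp in the same order. The P17 SOX8 peak reached only 41 bp into the flank of Aif1.

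A single peak in the vicinity of Aif1 touched no other protein-coding gene. This P2 H3K27ac peak was 667 bp wide and stood 2347 bp from the gene. With peaks at no other gene required, no SOX8, SOX9 or H3K4me3 peak remained at any of the 5 microglia genes at either age. The count for Aif1 is therefore set by the size of the flanks.

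**Figure D2:**
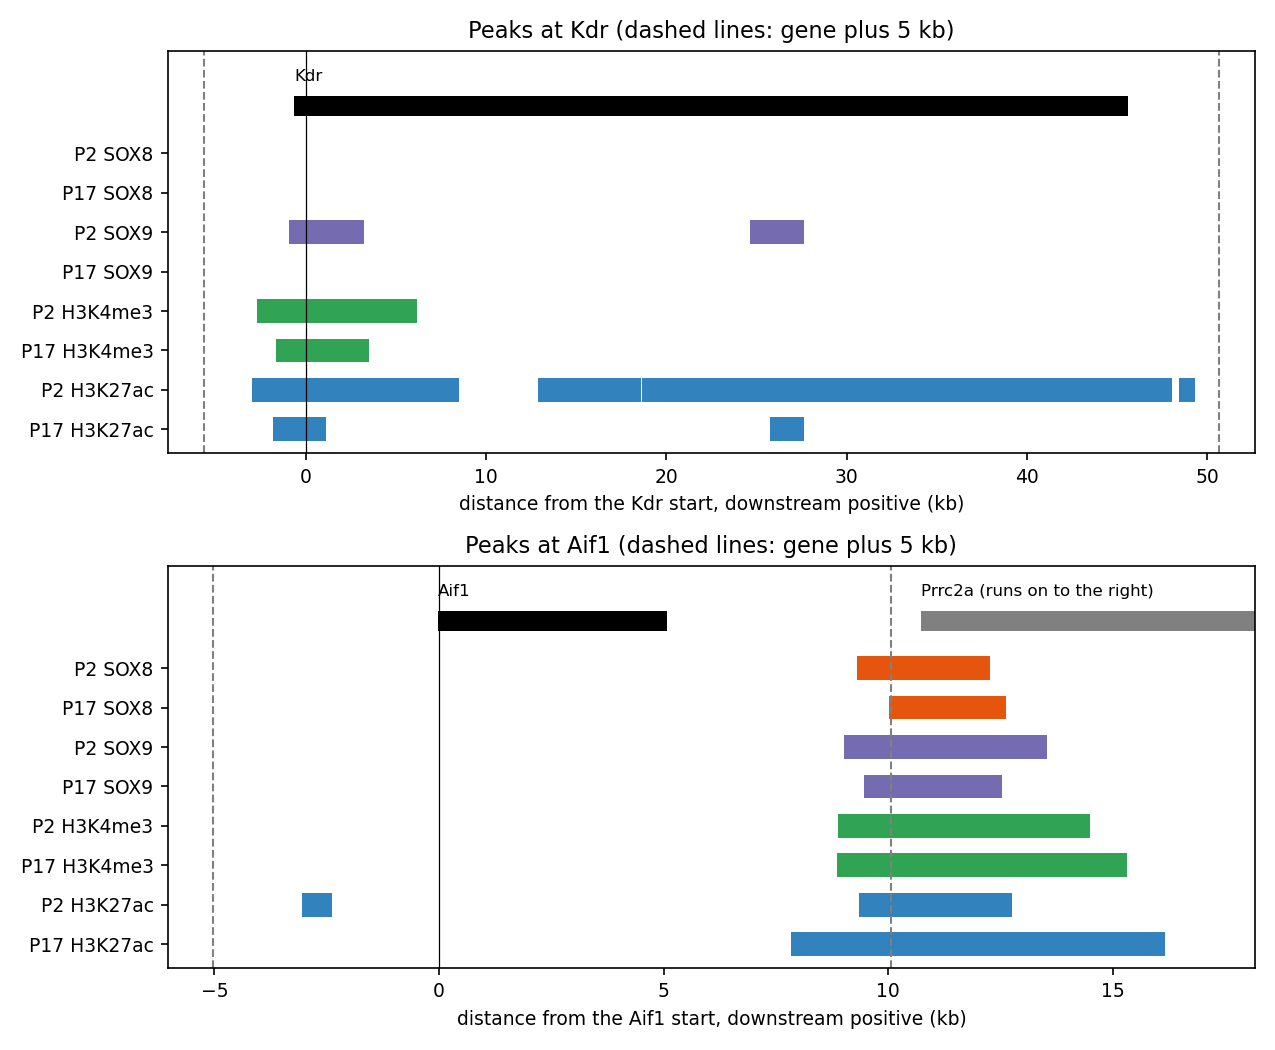
Peaks (bars) of each list at Kdr (top) and Aif1 (bottom), by distance from the gene's own start in kb, positive downstream; black bars are the genes, the grey bar is Prrc2a and dashed lines bound the gene plus 5 kb. SOX9, H3K4me3 and H3K27ac peaks lie over the start of Kdr, while each list has a peak at the end of Prrc2a that is counted at Aif1, and P2 H3K27ac has a further peak on the other side of Aif1.

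Among the endothelial genes, Kdr was the one with peaks of its own in 5 lists. Kdr encodes VEGF receptor 2, the main receptor through which VEGF-A drives vessel growth, and it is also known from retinal progenitor cells, so its peaks cannot be assigned to endothelium from these lists. The gene spans chr5:75932827-75979072, 46246 bp, with its RefSeq start at 75978455 on the minus strand. At P2 an H3K4me3 peak of 8910 bp (chr5:75972247-75981156) lay over the start, and only 133 of the 9134 peaks in that list (1.46%) were at least as wide. At P17 the H3K4me3 peak was 5162 bp wide (chr5:75974946-75980107). It lay wholly within the P2 peak and made up 57.9% of it, and 18.4% of the P17 H3K4me3 peaks were at least as wide.

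SOX9 had 2 peaks at Kdr at P2 and none at P17, when the nearest was 971 kb away. The first, of 4156 bp (chr5:75975190-75979345), covered the start and fell wholly within the H3K4me3 peak of the same age. The second, of 3043 bp (chr5:75950797-75953839), lay inside the gene, 24616 bp from the start. Kdr was the only one of the 10 genes with SOX9 at P2 only, a pattern held by 16.4% of all protein-coding genes. SOX8 had no peak at Kdr, the nearest being 325 kb away at P2 and 1630 kb at P17.

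H3K27ac covered 84.4% of Kdr and its flanks at P2, the highest share of the 10 genes, in 4 peaks of 881, 5758, 11493 and 29356 bp. Of the 287845 peaks of that list, 303 (0.105%) were at least as wide as the widest at Kdr. At P17, 2 narrower peaks lay at the gene. The peak of 2936 bp lay over the start, and that of 1913 bp (chr5:75950797-75952709) lay wholly within the inner P2 SOX9 peak, with the same first base, and made up 62.9% of it. Both P17 peaks fell wholly within P2 H3K27ac peaks.

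Pecam1, which encodes the adhesion molecule CD31 at endothelial junctions, spans chr11:106654213-106715281, 61069 bp. At P2 it had 15 H3K27ac peaks over 47.9% of its footprint, the widest of 11088 bp. At P17 it had 2, of 2506 bp (chr11:106674057-106676562) and 2946 bp (chr11:106692369-106695314). Both lay inside the gene, 19844 and 19967 bp from the nearer gene end, and overlapped P2 peaks. Neither was near a SOX peak: the nearest SOX9 peak was 39.8 kb from Pecam1 at P2 and 70.5 kb at P17.

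Cdh5, Tek and Cldn5 had P2 H3K27ac peaks and no others. Cdh5 encodes VE-cadherin, the cadherin of endothelial junctions (chr8:104101613-104144504). It had 14 peaks over 40.8% of its footprint, the widest of 5168 bp, and its nearest H3K4me3 peak stood 103 kb away at both ages. Tek encodes TIE2, the receptor for angiopoietins (chr4:94739086-94874976, at 135891 bp the longest of the 10). Its 11 peaks covered only 9.0% of the footprint, the lowest share of the 10, and the nearest stood 3610 bp from the start. Cldn5 encodes the tight junction protein claudin-5 of the blood-retina barrier (chr16:18776847-18778262, at 1416 bp the shortest). It had 3 peaks over 78.2% of the footprint, and the widest, of 4982 bp, lay across the start. Its nearest P17 H3K27ac peak was 20.1 kb away, at Cdc45.

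The P2 H3K27ac list alone reached most of the genes. At 7 of the 10 it was the only list with a peak, against 19.2% of all protein-coding genes. The 81 peaks had a median width of 1051 bp, beside 1166 bp for the whole list, and 52 lay inside a gene, 10 across a gene end and 19 in a flank. A peak lay within 1 kb of the start of 7 genes, where 67.2% of all genes had one. The genes without were Cx3cr1, Aif1 and Tek. For Csf1r, Tmem119, Pecam1 and Cdh5, either gene end was taken as the start. The share covered ranged from 9.0% to 84.4%, with a median of 44.3% beside 20.9% over all protein-coding genes, and 6 of the 10 were above the latter. The cell types differed: the median was 17.9% for the 5 microglia genes, below that of all genes, and 47.9% for the 5 endothelial genes. The 49 other microglia and endothelial genes described further on had a median of 17.2%, below that of all genes, and 20 Müller glia genes one of 70.6%. Of the 49, the 24 microglia genes had a median of 12.8% and the 25 endothelial genes 22.4%, slightly above that of all genes. The higher median of the 10 genes was therefore not seen in the wider list of the same cell types.

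**Figure D3:**
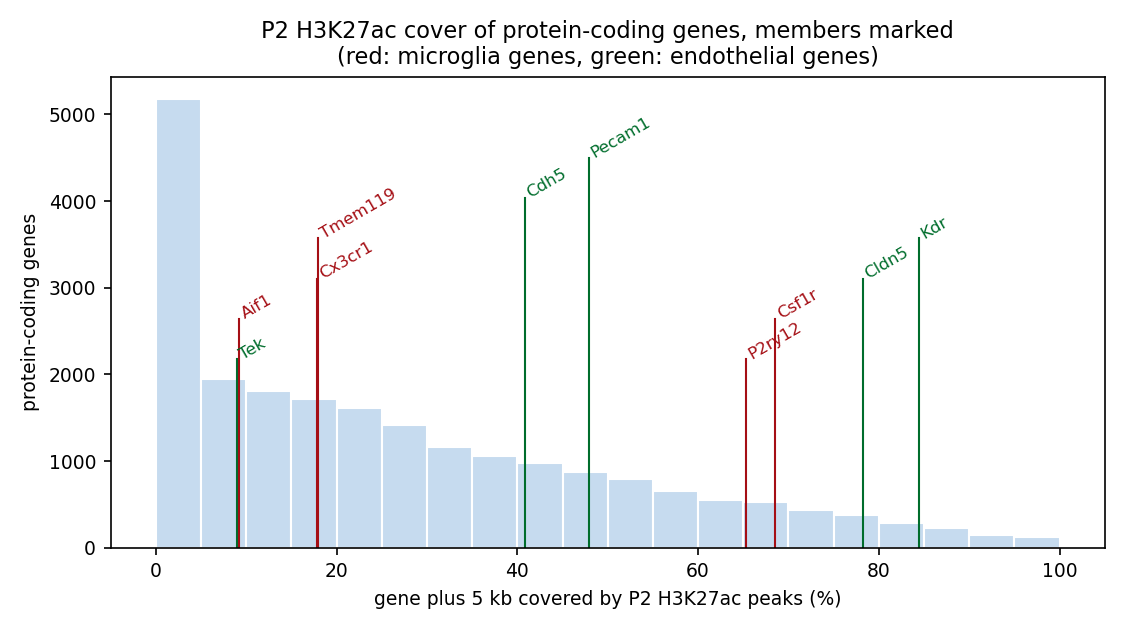
Protein-coding genes (bars, number of genes) by the share of the gene plus 5 kb covered by P2 H3K27ac peaks, in %, with the microglia genes (red) and endothelial genes (green) marked by lines whose heights carry no value. Kdr (84.4%), Cldn5, Csf1r and P2ry12 (65.3%) lie to the right, and Tek (9.0%) and Aif1 (9.23%) to the left.

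Between the ages, the only call at the 10 genes that differed outside H3K27ac was SOX9 at Kdr. For these targets, calls that differed were held by a minority of all protein-coding genes as well. SOX8 was present at both ages at 1 gene, Aif1, against 8.08% of all genes, and at neither age at 9, against 80.0%; none had it at P2 only (7.0% of all genes) or P17 only (4.94%). SOX9 was present at both ages at 1 gene (11.4% of all genes), at P2 only at 1, Kdr, at P17 only at 0 (4.35%) and at neither age at 8 (67.9%). H3K4me3 was present at both ages at Aif1 and Kdr (45.9% of all genes) and at neither at the other 8 (45.7%), with none that had it at P2 only (3.4%) or P17 only (5.0%). So the same genes were counted at both ages for SOX8 and H3K4me3. The SOX9 lists held 5476 peaks at P2 and 2855 at P17 and differed in the rod and Müller glia genes they reached, as given above, so the SOX9 peaks of Kdr at P2 alone are a difference between those lists, and a change in binding with age was not tested.

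The P2 and P17 H3K27ac lists differ in length, with 287845 and 29909 peaks, so the change with age was also read in lists of equal number. As deposited, 7 of the 10 genes had H3K27ac at P2 only, against 25.1% of all genes, and 3 at both ages, against 56.7%. None had it at P17 only (0.315% of all genes) or at neither age (17.9%). In the widest 29909 P2 peaks, each of at least 3265 bp, 8 of the 10 genes had a peak, against 40.5% of all genes. These were all 5 endothelial genes and Csf1r, Aif1 and P2ry12, while Cx3cr1 and Tmem119 dropped out. The peak at Aif1 was again that of Prrc2a. Of the 49 other genes of these cell types, 20 (40.8%) had a peak among these, a share near that of all genes. By cell type, they were 8 of 24 microglia genes (33.3%) and 12 of 25 endothelial genes (48.0%), 1 share below and 1 above that of all genes. The P17 list was not cut by width and had a median of 3268 bp. The 8 genes in the cut P2 list and the 3 at P17 therefore come from unlike width limits and do not measure a change with age. The P17 peaks at Pecam1 and Kdr, of 1913 to 2946 bp, were all narrower than the P2 limit. Whether the difference in list length arose from depth, calling or tissue was not tested.

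Gene length bears on these counts, since a longer gene is hit more often. In the widest P2 H3K27ac peaks, the share of genes with a peak went from 18.0% in the shortest of 4 length classes of equal size to 66.6% in the longest. Cldn5 and Aif1 belong to the shortest class, Tmem119 to the next, Cx3cr1, Csf1r and Cdh5 to the third, and P2ry12, Pecam1, Kdr and Tek to the longest. From the shortest class to the longest, these widest peaks lay at 2 of 2, 0 of 1, 2 of 3 and 4 of 4 of the 10 genes, against 18.0%, 33.4%, 43.8% and 66.6% of all genes in the class. H3K4me3 at either age lay at 1 of 2 (Aif1, with the peak at Prrc2a), 0 of 1, 0 of 3 and 1 of 4 (Kdr). The shares of all genes were 27.7%, 51.3%, 56.5% and 61.6% at P2 and 27.9%, 52.9%, 58.2% and 64.6% at P17. P17 H3K27ac lay at 1 of 2 (Aif1), 0 of 1, 0 of 3 and 2 of 4 (Pecam1 and Kdr), against 32.1%, 58.6%, 65.1% and 72.4%. The counts thus lay below the shares in the 3 classes of longer genes and not in the shortest, for both H3K4me3 and P17 H3K27ac. Each class holds only 1 to 4 of the 10 genes, and the exception in the shortest rests on the Prrc2a peaks counted at Aif1. No trend with length can be read from these counts.

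At the start itself, within 1 kb, Kdr was the only one of the 10 genes with a peak outside the P2 H3K27ac list. It had SOX9 at P2 (22.6% of all genes), H3K4me3 at P2 (44.3%) and P17 (45.6%), and H3K27ac at P17 (47.3%). No start had SOX8 at P2 (12.1% of all genes) or P17 (8.9%), or SOX9 at P17 (10.8%). Over all RefSeq windows the share with H3K4me3 followed the CpG count shown in the sequences above, whose median was 10. Of windows with 0 to 4 CpG, 5.84% had H3K4me3 within 1 kb at P2 and 6.99% at P17. Aif1 (1 CpG), Tek (2), P2ry12 (3) and Cx3cr1 (4) were of this kind, so for these 4 genes the lack of a peak is shared with most starts of like sequence. Cldn5, with 12, fell among windows of which 60.7% (P2) and 63.5% (P17) had the mark, and it had none at either age. Kdr, with 16, fell among windows of which 74.3% and 74.5% had it.

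**Figure D4:**
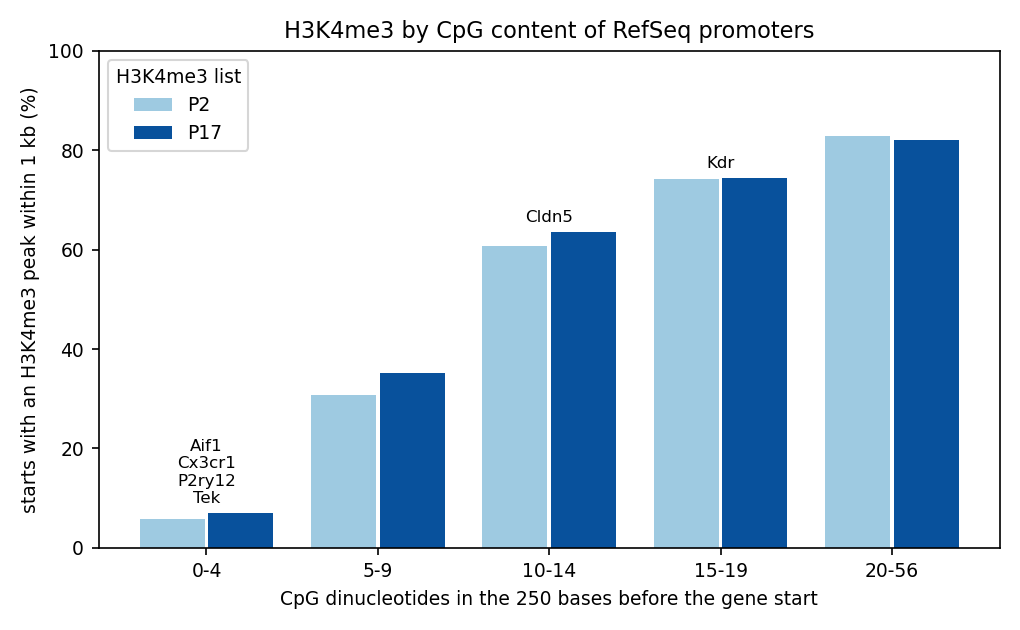
Share of RefSeq gene starts with an H3K4me3 peak within 1 kb (bars, in %; light P2, dark P17) by the number of CpG dinucleotides in the 250 bases before the start, with the 6 matched genes named above their class. The share rises with CpG count, from 5.84% to 82.9% at P2; Cldn5 lies in a class mostly marked and has no peak itself.

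The same windows were searched on both strands for AACAAT and ACAAAG, as bound by SOX factors, GGAAG, the core of ETS and PU.1 sites, and GGGCGG, the GC box. Of all windows, 8.22%, 14.9%, 65.1% and 42.6% held them, in that order. Tek held ATTGTT, the reverse of the first, 63 bases before its start and ACAAAG 26 bases before it, and its nearest SOX peak stood 174 kb away at P2. Kdr, with SOX9 over its start at P2, held neither SOX motif in its window, but CTTCC 216 bases before the start and CCGCCC 166 and 45 bases before it. P2ry12 held CTTTGT 179 bases and GGAAG 51 bases before its start, and Cldn5 held CCGCCC 45 bases before its start. Cx3cr1 and Aif1 held none of the 4.

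Other genes of the same cell types were counted in the same way. These were 49 further genes, 24 of microglia and 25 of endothelium. A P2 H3K27ac peak lay at 44 of them (89.8%), near the 81.8% of all protein-coding genes. Within 1 kb of the start, 26 (53.1%) had one, below the 67.2% of all genes. A P17 H3K27ac peak lay at 17 (34.7%), against 57.0% of all genes. H3K4me3 lay at 8 (16.3%) at P2, against 49.3%, and at 10 (20.4%) at P17, against 50.9%. Several of the P17 H3K4me3 peaks lay at a neighbour. That of Tyrobp, a signalling adaptor of microglia, stood 3752 bp away at Nfkbid, and that of Vwf, the endothelial clotting factor gene, 2347 bp away at Ano2. Sall1, a transcription factor gene, had a P2 H3K4me3 peak of 5640 bp over its start and none at P17. It is also known from other embryonic tissues and is not particular to microglia.

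Slc2a1, the glucose transporter of barrier endothelium, which other retinal cells also use, had a peak in every list but P17 SOX8. Its H3K4me3 peaks were 11077 bp wide at P2 and 9300 bp at P17. SOX9 lay in the body of Ets1 at P2 (2024 bp) and at Egfl7 at both ages. P17 SOX9 also lay in the microglia genes Laptm5 (8606 bp) and Olfml3 (6614 bp). In all, 37 of the 49 genes had no SOX8 or SOX9 peak at either age, beside 8 of the 10 genes and 66.1% of all protein-coding genes.

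The genes for the ligands of these receptors, made in part by retinal neurons and glia, were read beside them. Vegfa, whose product binds KDR, had a peak at its start in all 8 lists, with H3K4me3 of 7446 bp at P2 and 6916 bp at P17, SOX8 of 3307 and 4931 bp and SOX9 of 3070 and 3699 bp. Cx3cl1, the neuronal ligand of CX3CR1, had H3K4me3 at P17 only, 4530 bp wide over its start. Csf1, a ligand of CSF1R, and Vegfc, which encodes another VEGF, had it at P2 only, with peaks of 3126 and 2815 bp. A P17 SOX9 peak of 4901 bp stood 789 bp from Il34, the other CSF1R ligand, and was counted within 1 kb of its start. It also overlapped the gene Mtss2. Of the 7 ligand genes, 3 had H3K4me3 at P2 and 2 at P17, against 49.3% and 50.9% of all protein-coding genes. No difference from the receptor genes was tested.

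Lists of common retinal cells and of other scarce types were read for H3K4me3 in the same way. Of all protein-coding genes, 49.3% had it at P2 and 50.9% at P17. Of 20 rod photoreceptor genes, 11 had an H3K4me3 peak at P2 and all 20 at P17, and 7 and 19 had it at the start. The windows of the 14 rod genes in the promoter table had a median of 3.0 CpG, beside 3.5 for the 6 matched microglia and endothelial genes. Of 20 Müller glia genes, 17 had H3K4me3 at P2 and 7 at P17. The rod and Müller glia counts thus went in opposite directions between the ages. These lists therefore do not serve as a plain check of the tissue, and why the Müller glia count was lower at P17 was not tested. Of other scarce types, 2 of 10 mural cell genes (Notch3 and Vtn) had H3K4me3 at P2 and 1 at P17 (Vtn). The Vtn peaks lay at its start but also overlapped the gene Sarm1 at both ages. Of 8 red blood cell genes, 1 had it at P2 (Klf1) and 0 at P17. Of 6 astrocyte genes, 2 had it at each age, and none had it at the start. For 1 of these 2, the peak lay outside the gene at neighbouring genes, 4903 bp away at P2 and 4412 bp at P17.

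**Figure D5:**
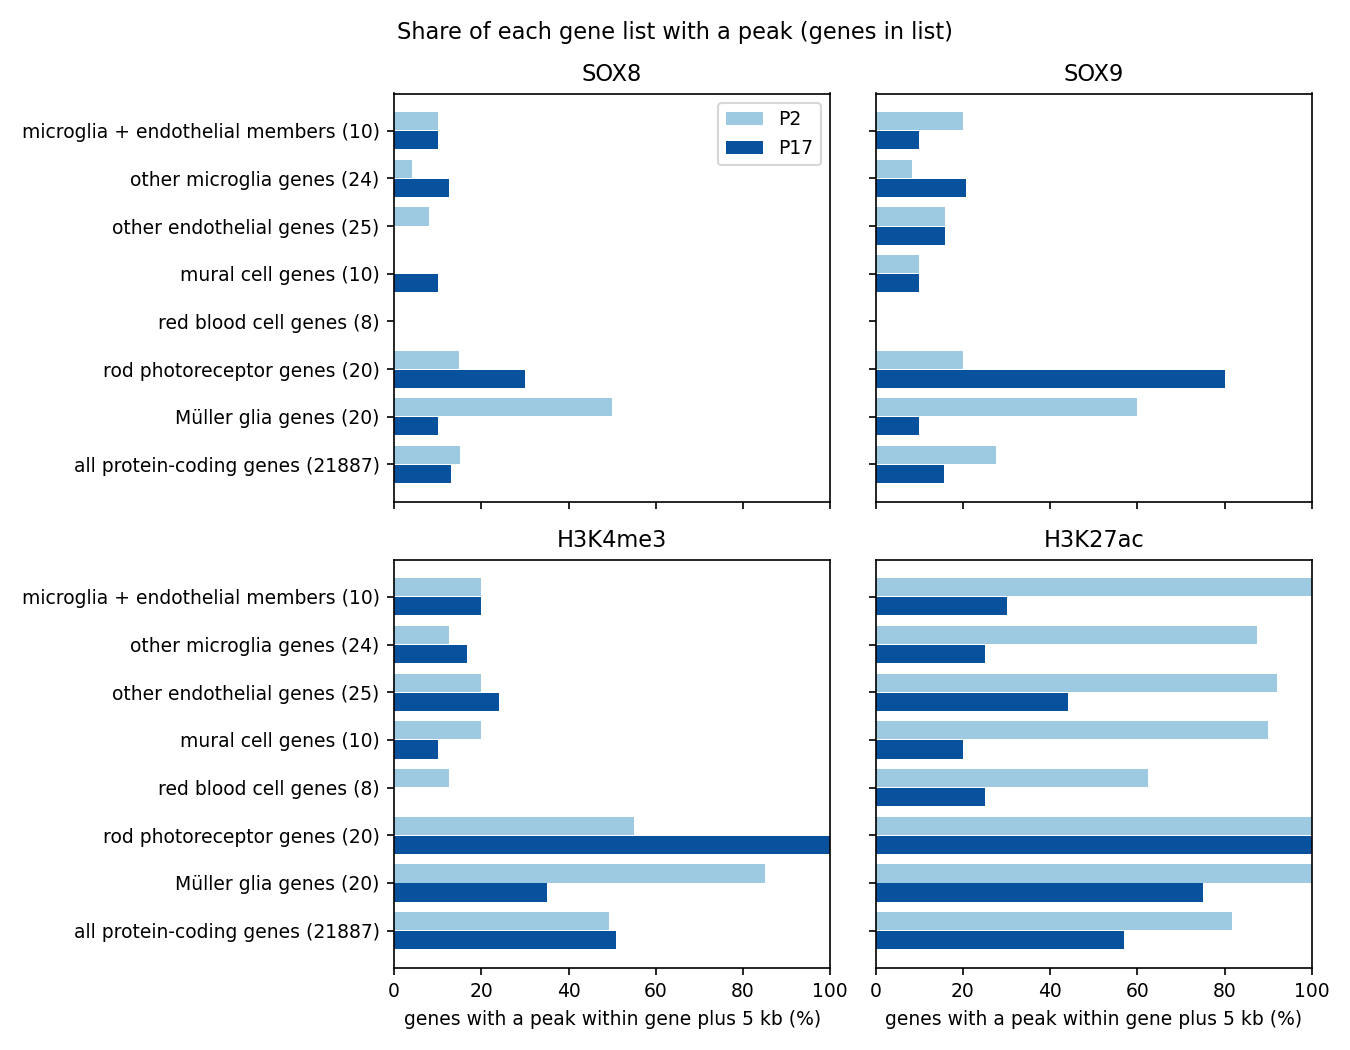
Share of the genes of each list (in %; number of genes in brackets) with a peak within the gene plus 5 kb, for SOX8, SOX9, H3K4me3 and H3K27ac at P2 (light) and P17 (dark). For H3K4me3, 2 of the 10 genes have a peak at both ages, beside the 49.3% and 50.9% of all protein-coding genes, and all rod genes have a peak at P17.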

How the data were processed

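The 8 deposited peak lists hold 1 list per target (SOX8, SOX9, H3K4me3, H3K27ac) and age, with 349901 peaks in all and a score of 0 for every peak, so the deposited score could not be used. The submitters' processing notes name Bowtie2, SEACR and the build GRCm38. The threshold, the use of IgG and the way the authors combined libraries are not given in the sources used here, and neither is the depth. Peak number and width both depend on depth and threshold, which may differ between lists. The 8 lists stand for 20 libraries.

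Gene ends and symbols came from a RefSeq table of GRCm38.p6, and starts from its promoter table (6 of the 10 genes) or else from both gene ends. Whether a peak lay in an exon or an intron was not determined, since the table gives only gene ends. As a check of the build, the centres of 80.9% (P2) and 74.8% (P17) of the H3K4me3 peaks lay within 1 kb of a gene start, against 4.24% and 4.1% after a shift of 10 kb. Overlaps were counted with Python 3.11.15, pandas 2.3.3 and numpy 2.4.6, and the counting was tested on simulated data. Positions are counted from 1. All counts are descriptions without a test.

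The members and gene lists were chosen with earlier results of these data known. All 10 genes are named. Of the other lists, genes with H3K4me3 at only one age or with any SOX peak could be named, up to 10 per list in alphabetical order; some of these are not reported here. Slc2a1, Vegfa, Ets1, Egfl7, Laptm5, Olfml3 and Il34 came in through SOX peaks. Alternatives were other flanks, peak centres, starts only, the wider 50% of each list, peaks of at least 1 kb, peaks at no other gene and P2 H3K27ac lists of equal number.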

Additional observations from a re-analysis of the deposited data

How the results depend on the processing

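Of 74 alternative counts, 36 stayed within 1.5 times the main count and 38 did not; the count of the 10 genes with P2 H3K27ac stayed within that range in each alternative run. The single gene with SOX8 at P2, SOX8 at P17 or SOX9 at P17 (Aif1) became 0 with no flanks, at starts, with peak centres inside and with peaks at no other gene, and 2 with flanks of 20 kb, which added Tmem119. In the wider 50% of each list it became 0 for P17 SOX8 and P17 SOX9. The 2 genes with P2 SOX9, P2 H3K4me3 or P17 H3K4me3 became 1 (Kdr) with no flanks, at starts, with centres inside and at no other gene. The 3 genes with P17 H3K27ac became 1 at starts (Kdr) and 1 in the wider 50% (Aif1). For the 49 other microglia and endothelial genes, counting at starts gave 2 for P2 SOX9 (22.6% of all genes) and 4 for P2 H3K4me3 (44.3%). It gave 26 (53.1% of the 49) for P2 H3K27ac, below the 67.2% of all genes. At P17 it gave 1 for SOX8 (8.9% of all genes), 5 for H3K4me3 (45.6%) and 9 for H3K27ac (47.3%). The widest P2 H3K27ac peaks in the P17 number gave 20 (40.5% of all genes). These changes follow from which peaks each rule admits. No paired analysis was possible because the lists carry no replicate. Depth is unknown, so a gene without a peak was not detected in that list, which does not show that the mark was absent from microglia or endothelium.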
